A study of Mus musculus with 6 samples.

Results

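The interferon regulatory factors (IRFs) are a family of transcription factors, and 8 of their genes, Irf1, Irf2, Irf3, Irf4, Irf5, Irf7, Irf8 and Irf9, were examined for H3K4me3 at their promoters. The 8 genes were chosen by name from the 21951 protein-coding genes of GENCODE release M21. H3K4me3 ChIP-seq had been performed in 2 untreated mouse cell lines. The T-cell side is represented by Scid.adh.2C2, DN3-like cells subcloned from the Scid.adh line. That parent line came from a thymic tumour that arose spontaneously in CB17 mice with the Prkdc scid mutation. The B-cell side is represented by 230-238, pre-B cells immortalised by Abelson virus. Each line had 2 H3K4me3 libraries and 1 input library, and the authors deposited 1 peak list per line in which both H3K4me3 libraries are combined. The lists hold no read counts and no value per library, so that sequencing depth and the spread between replicates are not known, and no difference between the lines was tested.

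H3K4me3 is a histone modification found around the start sites of active and poised genes, and wide domains of it are known from genes that define a cell type. IRFs share a DNA-binding domain that recognises GAAA repeats, as in the interferon-stimulated response element (ISRE), and most of them act in the induction of interferons or in the response to them. Irf4 and Irf8 are the lymphoid and myeloid members, which bind composite Ets-Irf elements together with Spi1 (PU.1) or Spib and are required for pre-B cells to proceed to light chain rearrangement.

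The list of Scid.adh.2C2 holds 15513 peaks and that of 230-238 holds 19604. A gene was called marked in a line if at least 1 bp of a peak of that line lay within 2500 bp of any of its annotated transcription start sites (TSSs). The value of a promoter is the fold enrichment over background of its highest peak, as the authors' peak caller gave it. The median of this value over all marked protein-coding genes was 27.1 in Scid.adh.2C2, with quartiles of 21.6 and 32.1, and 21.7 in 230-238, with quartiles of 17.6 and 25.5. Because these scales differ, levels of fold enrichment were compared between the lines through percentiles, the percentile of a gene being the percentage of marked protein-coding genes in the same list with a lower value. Widths are given in bp, with percentiles or with their ratio over all genes marked in both lines.

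The identity of the lines was checked with marker genes. In Scid.adh.2C2, 12 of 14 T-lineage markers were marked, among them Cd3e, Gata3 and Bcl11b, which had no promoter peak in 230-238. In 230-238, 12 of 14 B-lineage markers were marked, among them Cd79a, Ebf1 and Pax5, which had none in Scid.adh.2C2. The T-lineage markers marked in 230-238 numbered 6, and the B-lineage markers marked in Scid.adh.2C2 numbered 5, including the recombinase genes Rag1 and Rag2, which are shared by both lineages and were marked in Scid.adh.2C2 only. None of 10 myeloid and none of 6 NK markers was marked in either line. Of 7 genes listed as non-haematopoietic markers, Pecam1 was marked in both lines and Col1a1 in 230-238.

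In Scid.adh.2C2, 6 of the 8 Irf genes had a promoter peak, compared with 45.5% of all protein-coding genes. In 230-238 all 8 had one, compared with 48.2%. Irf1, Irf2, Irf3, Irf4, Irf7 and Irf9, 6 of the 8, were marked in both lines (42.2% of all protein-coding genes). Irf5 and Irf8 were marked in 230-238 only, 2 of the 8, compared with 5.96%, and no Irf gene was marked in Scid.adh.2C2 only, compared with 3.28%. The Irf4 peak of Scid.adh.2C2 was weak and did not reach the TSS. The most upstream TSS lay inside a peak for 5 Irf genes in Scid.adh.2C2, compared with 37.9% of all protein-coding genes, and for 7 in 230-238, compared with 38.7%.

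**Figure D1:**
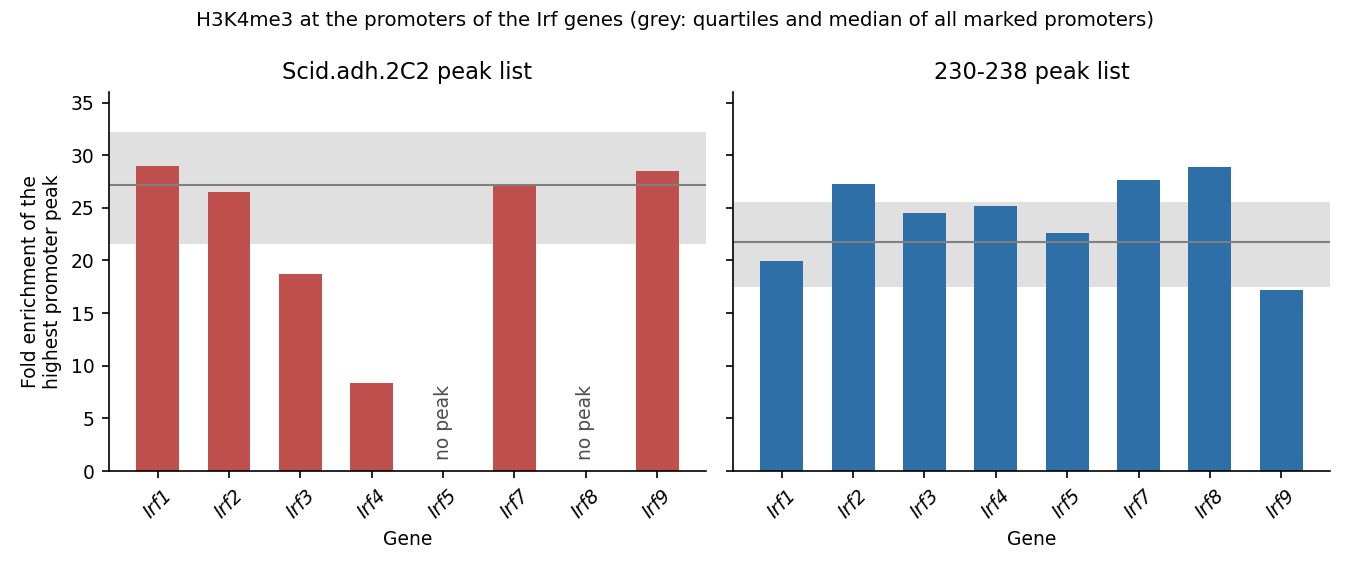
Fold enrichment of the highest H3K4me3 promoter peak of each Irf gene in the list of Scid.adh.2C2 (left) and of 230-238 (right), with a bar per gene; the grey band and line are the quartiles and the median over all marked protein-coding genes of the same list. Irf5 and Irf8 had no peak in Scid.adh.2C2 and Irf4 stood at 8.32, whereas in 230-238 all genes lay between 17.2 and 28.9.

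The sequences immediately upstream of the start sites of Irf5 and Irf8, which were marked in 230-238 only, and of Irf1, Irf2, Irf4 and Irf7, which were marked in both lines, are given 5′ to 3′ on the strand of the gene. They were taken from the RefSeq promoter windows of GRCm38, which hold 250 bases before and 50 after a start site, and were ended before the first annotated transcribed base. All 8 genes were found there, with 11 windows in all. Capitals mark matches, on either strand, to GAAA-any 2 bases-GAAA (ISRE core), to GGAA-any 2 bases-GAAA (Ets-Irf composite) or to TTC-any 3 bases-GAA (the gamma-activated site, GAS, which Stat dimers bind).
Irf4 (chr13:30748983-30749225, plus strand): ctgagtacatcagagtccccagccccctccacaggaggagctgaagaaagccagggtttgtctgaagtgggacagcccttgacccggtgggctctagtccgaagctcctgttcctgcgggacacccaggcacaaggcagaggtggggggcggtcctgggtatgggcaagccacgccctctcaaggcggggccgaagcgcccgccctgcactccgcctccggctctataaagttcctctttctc
Irf5 (chr6:29526375-29526624, plus strand): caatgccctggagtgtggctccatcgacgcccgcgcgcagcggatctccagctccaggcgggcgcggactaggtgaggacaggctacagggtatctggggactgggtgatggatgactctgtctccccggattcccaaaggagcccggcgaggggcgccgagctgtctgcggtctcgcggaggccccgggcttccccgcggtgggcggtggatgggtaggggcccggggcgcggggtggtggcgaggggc
Irf8 (chr8:120736108-120736357, plus strand): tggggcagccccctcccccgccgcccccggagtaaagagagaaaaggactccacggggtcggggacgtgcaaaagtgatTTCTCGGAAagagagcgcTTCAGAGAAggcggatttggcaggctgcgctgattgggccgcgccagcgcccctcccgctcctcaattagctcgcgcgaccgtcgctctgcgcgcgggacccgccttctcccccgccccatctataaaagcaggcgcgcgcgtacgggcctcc
Irf1 (chr11:53769764-53770013, plus strand): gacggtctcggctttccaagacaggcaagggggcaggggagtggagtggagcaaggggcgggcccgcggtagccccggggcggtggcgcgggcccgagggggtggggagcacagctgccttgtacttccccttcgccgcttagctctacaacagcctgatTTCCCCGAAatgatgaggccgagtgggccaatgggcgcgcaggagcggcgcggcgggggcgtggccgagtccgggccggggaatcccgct
Irf2 (chr8:46739495-46739731, plus strand): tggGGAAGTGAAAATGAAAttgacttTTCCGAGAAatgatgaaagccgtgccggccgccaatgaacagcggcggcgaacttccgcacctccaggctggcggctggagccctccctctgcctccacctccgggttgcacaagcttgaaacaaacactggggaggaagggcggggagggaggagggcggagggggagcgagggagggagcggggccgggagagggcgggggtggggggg
Irf7 (chr7:141266482-141266674, minus strand): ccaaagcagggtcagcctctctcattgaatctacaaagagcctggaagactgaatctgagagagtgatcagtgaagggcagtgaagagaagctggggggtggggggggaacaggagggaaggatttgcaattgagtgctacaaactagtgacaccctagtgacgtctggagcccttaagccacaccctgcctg

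The Irf1 window had a GAS match whose first base lay at position -90 from the RefSeq start site. The upstream Irf8 window had 2, which began at -171 and -153. The Irf2 window held the 3 motifs together: an Ets-Irf composite and an ISRE core that overlapped by 4 bases, beginning at -247 and -241, and a GAS match beginning at -224. The windows of Irf3, Irf4, Irf5, Irf7 and Irf9 held no match, which says only that these letters were not there. Among 32841 RefSeq promoter windows, 3.44% held the ISRE core, 2.72% the composite and 8.30% the GAS motif.

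The windows also differed in CpG content, expressed as observed over expected CpG, which had a median of 0.384 over all promoter windows. The upstream Irf8 window had a ratio of 1.03 and a GC content of 70.0%, and the Irf5 window had a ratio of 0.889 and a GC content of 74.7%. The downstream Irf8 window had a ratio of 0.357 and a GC content of 54.7%, below the median ratio. Irf1, marked in both lines, had 0.912 and 1.02 in its windows, so that CpG-rich windows were found at genes of either state. The ratio was 0.712 for Irf3, 0.673 for Irf2, 0.398 for Irf4, 0.310 for Irf7 and 0.392 and 0.0483 for the windows of Irf9. Of 3464 protein-coding genes with a window at least as CpG-rich as that of Irf5, 79.6% were marked in Scid.adh.2C2 and 82.0% in 230-238, and 188 of them (5.43%) were marked in 230-238 only. This comparison was chosen after the values of Irf5 and Irf8 were seen.

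Irf8 had the widest H3K4me3 domain of the family. The gene lies on chromosome 8 from 120736358 to 120756694 on the plus strand and has 6 annotated TSSs. In 230-238 its main peak reached from 120736326 to 120746325, a width of 10000 bp, which only 8 of the 19604 peaks equalled or exceeded, this peak included. It reached from position -32 to 9967 from the most upstream TSS and contained 5 of the 6 TSSs. Its fold enrichment of 28.9 stood at percentile 90.7 and its −log10 q of 200.6 at percentile 99.0. The summit lay 3009 bp inside the gene, where the 200 bases around it held 1 CpG, a ratio of 0.0742. The highest point of the domain therefore lay outside the CpG-rich stretch at the start site.

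The Irf8 domain was continued on both sides. A 17.0-fold enriched peak of 1197 bp lay upstream of the TSS and a 7.06-fold enriched peak of 962 bp followed downstream, each separated from the main peak by a gap of 75 bp. Together the 3 peaks spanned 12309 bp, and peaks covered 53.7% of the gene. In Scid.adh.2C2 there was no peak at Irf8, and none anywhere in the 410.2 kb between Cox4i1 and Foxf1, the protein-coding genes on either side. In 230-238 this interval held 4 distal peaks, defined as peaks outside the promoter windows of all annotated genes, with summits at -36.3, 27.9, 63.9 and 95.6 kb from the TSS. Their fold enrichment was 8.50, 9.40, 5.72 and 5.17, so that none reached 10-fold. Of all 5815 distal peaks of 230-238, 76.6% overlapped no peak of Scid.adh.2C2, a background added after the peaks were seen, and the lack of counterparts is therefore no feature of this interval alone. The peak at 27.9 kb was 4147 bp wide. A further 3 peaks of 230-238, at -49.9, -20.3 and -11.5 kb, fell in the promoter windows of the non-coding or pseudogene entries Gm33142, Gm24239 and Gm18709, with a fold enrichment of 18.0, 7.53 and 16.6.

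Irf4, which directs light chain rearrangement, class switching and plasma cell formation in B cells, was marked in both lines by peaks of very different extent. The gene lies on chromosome 13 from 30749226 to 30766976 on the plus strand with 2 annotated TSSs. In 230-238 a peak of 6771 bp from 30746958 to 30753728 contained both TSSs. Its 25.2-fold enrichment stood at percentile 73.4 and its width at percentile 98.9 of the widest promoter peaks. With a further peak of 941 bp behind a gap of 120 bp, the domain extended over 7832 bp, from position -2268 to 5563 from the TSS. In Scid.adh.2C2 the promoter window held a single peak of 585 bp, from 30747753 to 30748337. It lay within the extent of the 230-238 peak but ended at position -889 from the TSS, upstream of both start sites, and its 8.32-fold enrichment stood at percentile 1.56. The gene counted as marked in Scid.adh.2C2 by this peak alone, and was unmarked there once peaks below 10-fold enrichment were left out.

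The difference in width at Irf4 was among the most uneven of all promoters. Its widest promoter peak was 11.6 times as wide in 230-238 as in Scid.adh.2C2, a log2 ratio of 3.53, and 99.96% of the 9261 genes marked in both lines had a lower ratio. The median log2 ratio over these genes was 0.14, with quartiles of -0.04 and 0.41. Each list also had 2 distal peaks within Irf4. An intronic peak had its summit 12.7 kb downstream of the TSS in each list, with summits 8 bp apart, and was 10.8-fold enriched in Scid.adh.2C2 and 9.38-fold in 230-238. Scid.adh.2C2 had another peak at 17.4 kb with its summit in an exon, 8.79-fold enriched, which had no counterpart in 230-238, as was the case for 62.4% of the 3722 distal peaks of Scid.adh.2C2. The peak of 230-238 that ended the domain, with its summit at 4.86 kb, 5.44-fold enriched with an IDR score of 820, had none in Scid.adh.2C2.

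The 200 bases around the summit of the upstream Irf4 peak of Scid.adh.2C2 and around the summit of the shared intronic peak in the same list are shown from the GRCm38 assembly, because the first is the only promoter peak of Irf4 in the T-cell progenitor line and the second is present in both lists. Capitals mark matches to the same motifs.
Irf4 upstream peak (chr13:30747842-30748041, plus strand): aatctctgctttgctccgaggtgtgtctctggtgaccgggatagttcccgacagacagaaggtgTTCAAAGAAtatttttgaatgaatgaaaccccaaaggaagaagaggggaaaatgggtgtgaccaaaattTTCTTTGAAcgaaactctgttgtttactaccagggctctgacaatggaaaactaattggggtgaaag
Irf4 intronic peak (chr13:30761862-30762061, plus strand): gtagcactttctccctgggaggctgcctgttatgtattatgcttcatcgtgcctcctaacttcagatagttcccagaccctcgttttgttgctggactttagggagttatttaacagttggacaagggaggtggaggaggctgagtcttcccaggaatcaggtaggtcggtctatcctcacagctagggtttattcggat
The upstream window held 2 GAS matches and neither of the IRF motifs, and the intronic window held none of the 3 motifs. Of all summit windows of this length, 4.82% in Scid.adh.2C2 and 5.19% in 230-238 held a GAS match. Among the promoter peaks of the Irf genes, 2 of 7 in Scid.adh.2C2 and 1 of 13 in 230-238 did, namely this Irf4 peak and the small peak of Irf3 in each list. None of the 20 promoter peaks of the Irf genes, 7 in Scid.adh.2C2 and 13 in 230-238, held the ISRE core or the composite in this window, motifs found in 2.24% and 1.27% of the windows of Scid.adh.2C2 and in 2.25% and 1.40% of those of 230-238. The search around summits was added after the peaks were seen.

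Irf5 acts downstream of Toll-like receptors and Myd88 in the induction of inflammatory cytokines. It lies on chromosome 6 from 29526625 to 29541871 on the plus strand. In 230-238 a single peak of 4894 bp, from 29525993 to 29530886, contained 4 of its 6 TSSs. Its 22.6-fold enrichment was close to the middle of the list, at percentile 56.0, whereas its width stood at percentile 95.0. The summit lay 1529 bp downstream of the most upstream TSS. Scid.adh.2C2 had no peak at Irf5 and no distal peak between Kcp and Tspan33, the nearest protein-coding genes that do not overlap it (Tnpo3 does). In 230-238 this interval held 1 distal peak, at -14.7 kb from the TSS, with a fold enrichment of 8.31 and an IDR score of 812. The promoter of Tnpo3, 82.7 kb downstream of the Irf5 TSS, was marked in both lines, 35.5-fold in Scid.adh.2C2 and 23.9-fold in 230-238. A further peak of Scid.adh.2C2, 21.7-fold enriched at 167.4 kb in the promoter window of Tspan33, had no counterpart in 230-238.

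**Figure D2:**
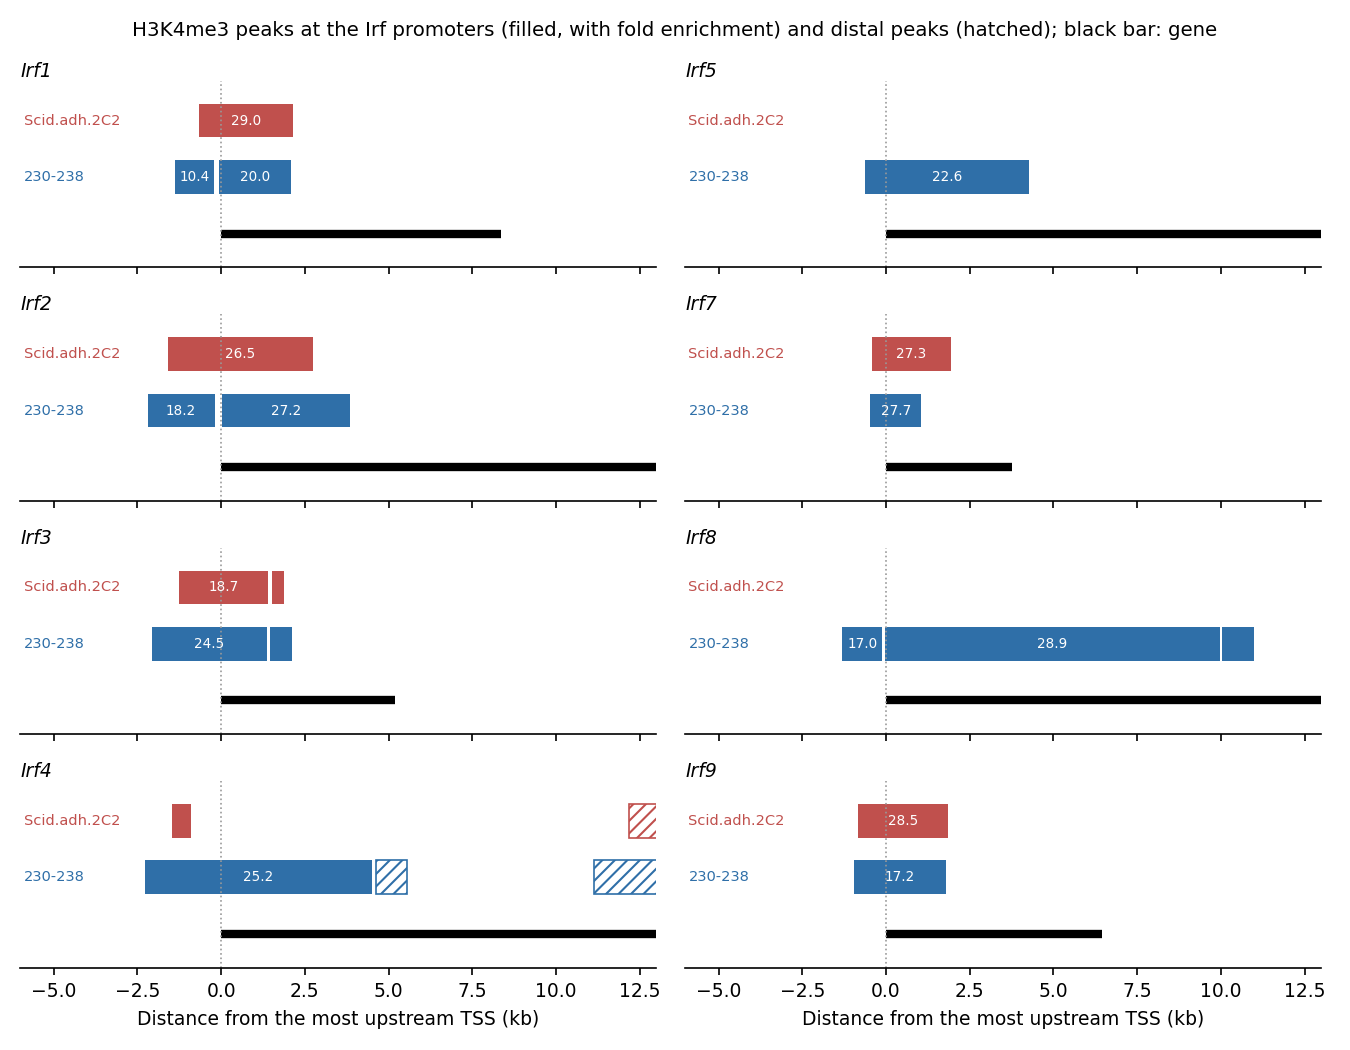
H3K4me3 peaks around the 8 Irf genes, drawn to scale as distance in kb from the most upstream TSS in the direction of transcription, with Scid.adh.2C2 in red, 230-238 in blue and the gene as a black bar, both ending at the edge of the panel where they extend further. Filled boxes are promoter peaks with their fold enrichment, written where the peak is wider than 1 kb, and hatched boxes are distal peaks. The domains of 230-238 at Irf4, Irf5 and Irf8 extend several kb into the gene, while the only promoter peak of Scid.adh.2C2 at these genes is the 585 bp peak upstream of Irf4.

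Irf3 and Irf7 are the factors that Tbk1 and Ikbke phosphorylate after viral nucleic acids are sensed, and they switch on the interferon genes. The Irf3 gene, on chromosome 7 from 44997648 to 45002848, shares its promoter with Bcl2l12, which is transcribed in the opposite direction. A peak of 2670 bp was 18.7-fold enriched in Scid.adh.2C2 and a peak of 3441 bp was 24.5-fold enriched in 230-238, each containing TSSs of both genes. These values stood at percentiles 15.5 and 68.8. By fold enrichment, the promoter of Irf3 and Bcl2l12 thus lay below the lower quartile in Scid.adh.2C2 and above the median in 230-238. By −log10 q of the same peaks, Irf3 stood at percentiles 29.1 in Scid.adh.2C2 and 57.7 in 230-238. By the part of the window covered by peaks, it stood at 75.6 and 86.1. In both lists a small peak followed behind a gap, with summits 1694 and 1695 bp downstream of the TSS and a fold enrichment of 9.95 in Scid.adh.2C2 and 8.15 in 230-238.

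Irf7 lies on chromosome 7 from 141262706 to 141266481 on the minus strand. Its single promoter peak was 27.3-fold enriched in Scid.adh.2C2 and 27.7-fold in 230-238, at percentiles 50.7 and 86.2. The width moved the other way. The peak was 2383 bp wide in Scid.adh.2C2 and 1517 bp in 230-238, at percentiles 62.9 and 15.1, and it covered 51.7% of the gene in Scid.adh.2C2 and 27.7% in 230-238. Only 4.98% of the genes marked in both lines had a lower ratio of the width in 230-238 to that in Scid.adh.2C2. The summits lay 50 bp apart, compared with a median of 71.0 bp over all genes marked in both lines, so that the peak of 230-238 ended earlier inside the gene around the same summit.

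Irf1 activates interferon-responsive genes, and Irf2 competes with it for the same sites. Irf1 lies on chromosome 11 from 53770014 to 53778374. In Scid.adh.2C2 it had a peak of 2795 bp, 29.0-fold enriched, at percentile 59.9. In 230-238 it had a peak of 2163 bp, 20.0-fold enriched, at percentile 38.5, and a 10.4-fold enriched peak of 1151 bp upstream of it, separated by a gap of 150 bp. The summits of the main peaks were 18 bp apart. When peaks separated by at most 500 bp were joined, an alternative chosen after the data were seen, the Irf1 domain was 3464 bp wide in 230-238 and 2795 bp in Scid.adh.2C2. Upstream of Irf1, at -6.7 kb, both lines had a peak in the promoter window of the microRNA gene Mir7671, 22.5-fold enriched in Scid.adh.2C2 and 27.3-fold in 230-238. At -34.1 kb a 7.59-fold enriched peak in the promoter window of Gm12213 was found in Scid.adh.2C2 only.

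Irf2, on chromosome 8 from 46739732 to 46847458, had a peak of 4332 bp in Scid.adh.2C2, 26.5-fold enriched, at percentile 46.9 for fold and 96.5 for width. In 230-238 the domain was split by a gap of 218 bp at the most upstream TSS, with an 18.2-fold enriched peak of 2001 bp upstream and a 27.2-fold enriched peak of 3819 bp downstream. The latter stood at percentile 84.0. Joined, the domain of 230-238 was 6038 bp wide, at percentile 95.7, and that of Scid.adh.2C2 stood at 94.0. The Irf2 promoter was thus among the wide domains of both lines. The ISRE core, the composite and the GAS match of the RefSeq window lay inside the upstream peak of 230-238, next to the gap. The single peak of Scid.adh.2C2 contained them as well.

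Distal peaks were also found around Irf2, 10 in 230-238 and 1 in Scid.adh.2C2 within 100000 bp either side of the gene. The peak of Scid.adh.2C2 lay at -52.6 kb from the TSS and was 21.2-fold enriched, and a peak of 230-238 with its summit 11 bp away was 22.5-fold enriched. The other 9 peaks of 230-238 had no counterpart in Scid.adh.2C2, as was the case for 76.6% of all distal peaks of that list. The strongest of them lay far downstream of the gene, at 181.1, 195.2 and 202.5 kb from the TSS, with a fold enrichment of 14.5, 19.4 and 15.9. No distal peak was found between the neighbouring genes of Irf1, Irf3, Irf7 and Irf9 in either list, where these intervals were at most 58.3 kb long. Within 100000 bp either side of the gene, Irf1 had 1 in each list.

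**Figure D3:**
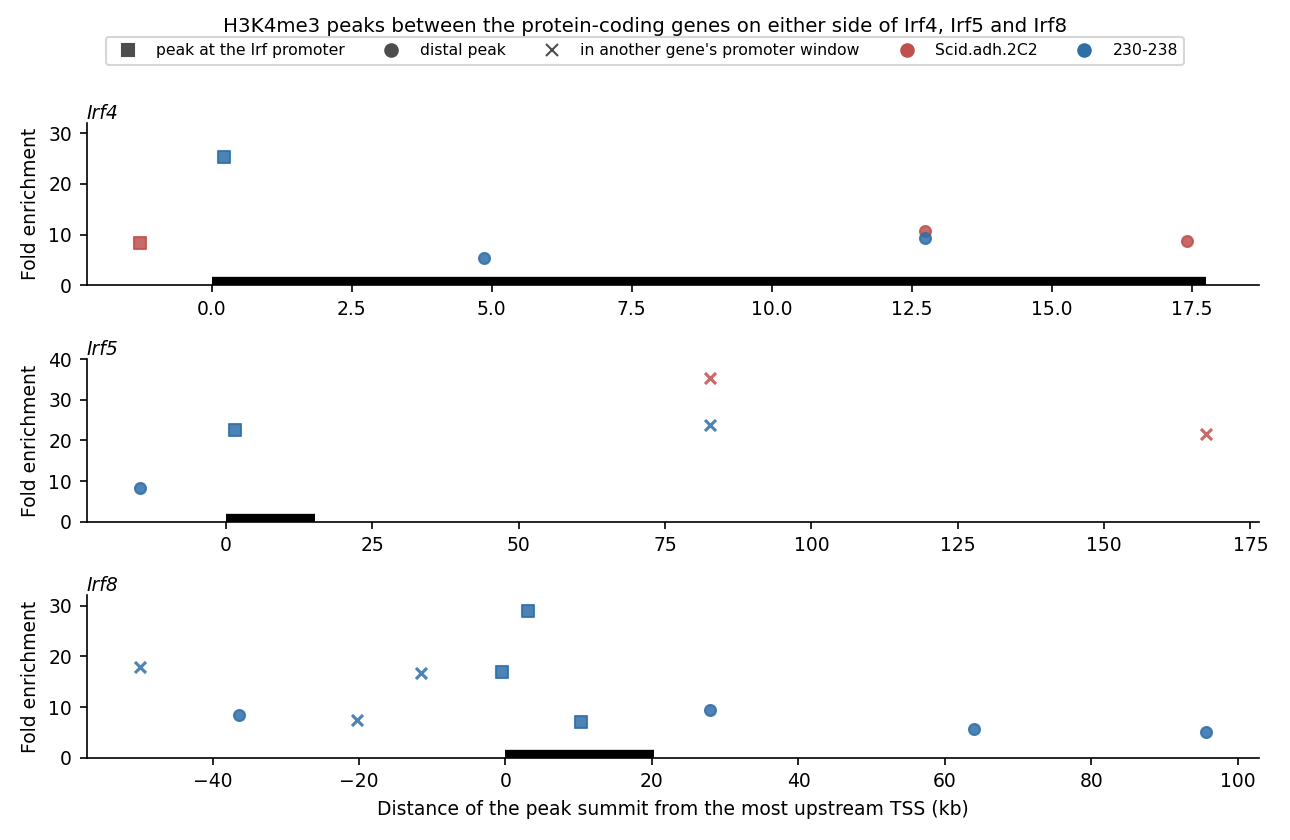
Fold enrichment of each H3K4me3 peak against the distance of its summit from the most upstream TSS, in kb, for the intervals around Irf4, Irf5 and Irf8, with Scid.adh.2C2 in red, 230-238 in blue and the gene as a black bar. Squares are peaks at the Irf promoter, circles distal peaks and crosses peaks in the promoter window of another gene. The interval of Irf8 has peaks of 230-238 only, and the intronic peak of Irf4 at 12.7 kb is seen in both lines.

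Irf9 is the DNA-binding subunit of the transcription factor complex that assembles with Stat2 after type I interferon signalling. It lies on chromosome 14 from 55603571 to 55610030. Its peak had nearly the same extent in both lines, 2711 bp in Scid.adh.2C2 and 2737 bp in 230-238, with 4 of its 7 TSSs inside. The fold enrichment was 28.5 in Scid.adh.2C2, at percentile 57.2, and 17.2 in 230-238, at percentile 23.5. The summits lay 696 bp apart, 970 bp downstream of the most upstream TSS in Scid.adh.2C2 and 274 bp in 230-238. Irf1 and Irf9 were the Irf genes marked in both lines whose percentile was lower in 230-238, with differences of -21.4 and -33.7 points (230-238 minus Scid.adh.2C2). For Irf2, Irf3, Irf4 and Irf7 it was higher in 230-238, with differences of 37.1, 53.4, 71.9 and 35.5 points. When the part of the window covered by peaks was used in place of the fold enrichment, Irf1, Irf2 and Irf7 changed direction.

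**Figure D4:**
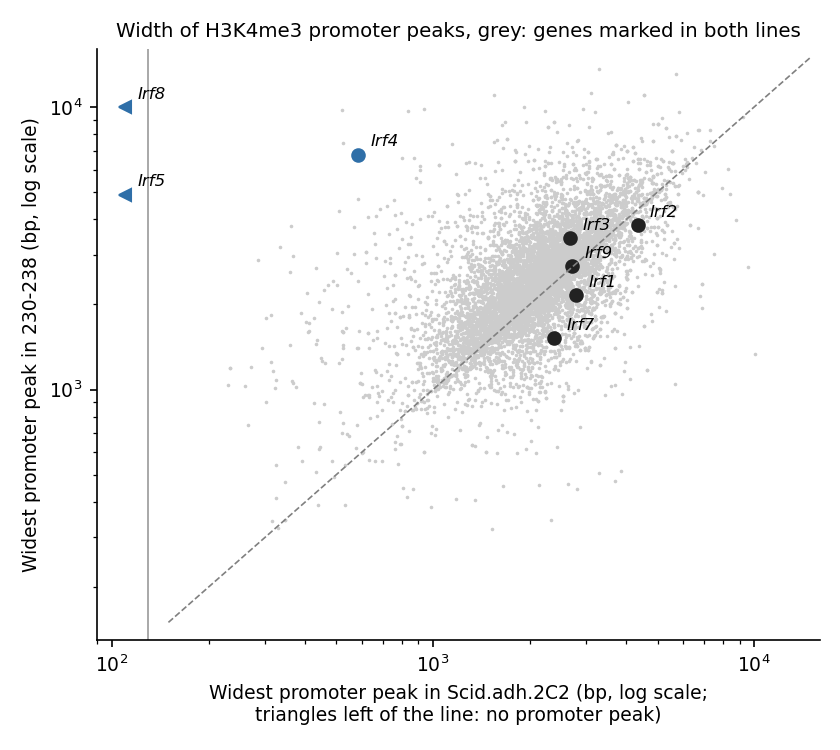
Width of the widest promoter peak in 230-238 against that in Scid.adh.2C2, both in bp on log axes, with grey points for the 9261 protein-coding genes marked in both lines, labelled points for the Irf genes and a dashed line of equal width. Irf5 and Irf8 are triangles at the left edge because they had no peak in Scid.adh.2C2, Irf4 lies far above the line and Irf7 below it.

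The other genes of the pathway were followed from lists of ligands, receptors, sensors, partners and targets. Of 97 symbols, 96 were found in the annotation. The exception was Tasl. Counted once each, 65 of these 96 genes were marked in both lines, 10 in 230-238 only, 4 in Scid.adh.2C2 only and 17 in neither. The same counts over all 21951 protein-coding genes were 9261, 1309, 719 and 10662.

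None of the 9 interferon ligand genes, among them Ifnb1 and Ifng, was marked in either line. Of the 12 genes of interferon receptors and their signalling proteins, 11 were marked in both lines. The exception was the type III receptor gene Ifnlr1, marked in 230-238 only with a 12.9-fold enrichment. In Scid.adh.2C2 the highest promoters of this list were those of Tyk2 (37.2-fold) and Stat3 (36.7-fold), and in 230-238 those of Stat3 (27.1-fold) and Stat2 (25.3-fold) were among the highest. Stat2, a partner of Irf9, was thus marked in both lines, and the median of the list was 28.8 in Scid.adh.2C2 and 21.4 in 230-238.

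Of 20 sensors, adaptors and kinases upstream of Irf3, Irf5 and Irf7, 15 were marked in both lines, 2 in 230-238 only and 3 in neither. The genes marked in 230-238 only were the Toll-like receptor genes Tlr4 (17.7-fold, with a peak of 7040 bp) and Tlr9 (12.5-fold), and those marked in neither were Tlr3, Tlr7 and Tlr8. Irak4 (37.6-fold), Traf3 (34.5-fold) and Myd88 (33.0-fold) were highest in Scid.adh.2C2. Ifih1 (28.5-fold), Ddx58 (26.9-fold) and Irak4 (26.1-fold), of which Ifih1 and Ddx58 encode cytosolic RNA sensors, were highest in 230-238. The cytosolic RNA and DNA sensors and their kinases in the list were marked in both lines, and the genes marked in 1 line only were Toll-like receptor genes. The percentiles of genes marked in both lines differed as well, from 78.8 in Scid.adh.2C2 to 8.25 in 230-238 for Myd88 and from 20.4 to 89.5 for Ifih1.

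Among 16 partners and cofactors of Irf4, Irf8 and Irf2, 12 were marked in both lines and 2 in neither. The exceptions were Ets1, marked in Scid.adh.2C2 only (23.4-fold, 3119 bp), and Spib, marked in 230-238 only (17.1-fold, 1306 bp). Spi1, the Ets partner of Irf4 and Irf8, is named here after its values were seen. Like Irf4 it had a weak peak in Scid.adh.2C2, 7.09-fold enriched and 836 bp wide, at percentile 0.75. Its peak in 230-238 was 21.9-fold enriched and 2953 bp wide, at percentile 51.4. Irf4 stood higher there, at percentile 73.4, with a wider peak of 6771 bp. Ikzf1, encoding Ikaros, was the highest of the list in both lines, with 34.0-fold in Scid.adh.2C2 and 33.1-fold in 230-238. It was followed by Irf2bp1 (30.1-fold) and Id2 (25.6-fold) in Scid.adh.2C2 and by Id2 (27.7-fold) and Tcf3 (27.4-fold) in 230-238.

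Of 40 interferon-stimulated genes, 28 were marked in both lines, 6 in 230-238 only, 3 in Scid.adh.2C2 only and 3 in neither. The genes marked in Scid.adh.2C2 only were the antiviral effectors Mx1 (13.3-fold), Oas1a (9.86-fold) and Rsad2 (9.02-fold), each below the lower quartile of the list. Those marked in 230-238 only were Parp9 (31.0-fold), Samhd1 (23.2-fold), Ciita (23.2-fold), Socs1 (22.3-fold), Ifitm3 (16.8-fold) and Oasl1 (7.00-fold). Of these, Ifitm3 and Oasl1 lay below the lower quartile of 230-238. Ciita, the activator of MHC class II genes, had a peak of 4595 bp there and Socs1, an inhibitor of Jak kinases, a peak of 7234 bp. The highest promoters in Scid.adh.2C2 were those of Psmb8 (39.0-fold), Irgm1 (37.1-fold) and Bst2 (34.4-fold). In 230-238 they were those of Parp9 and of Psmb9 and Tap1, which share a 30.8-fold enriched peak.

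**Figure D5:**
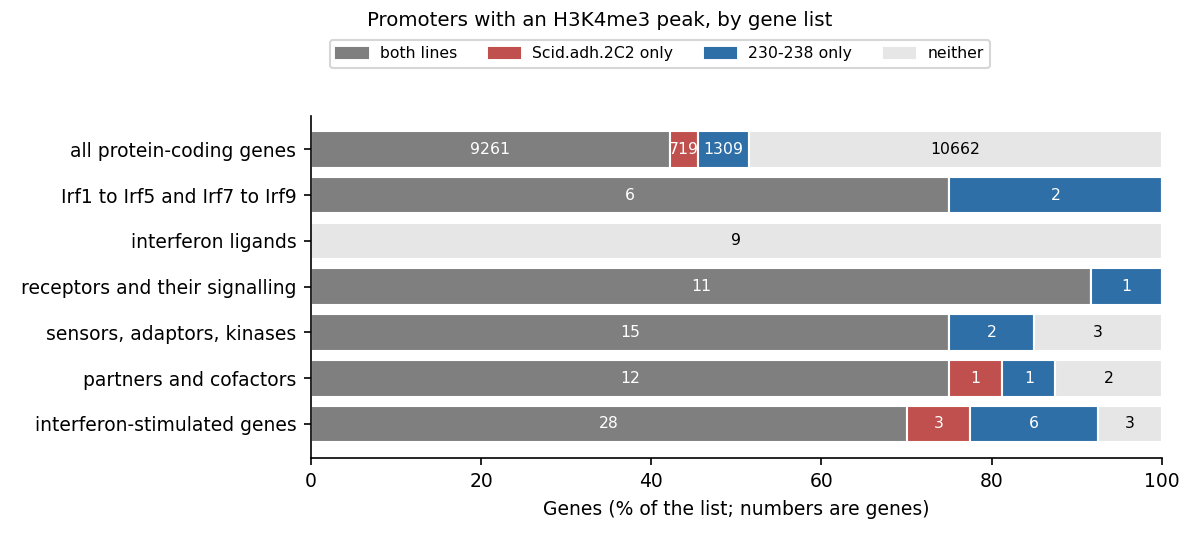
Percentage of the genes of each list that had an H3K4me3 promoter peak in both lines (dark grey), in Scid.adh.2C2 only (red), in 230-238 only (blue) or in neither (light grey), with the number of genes written in the bars. The 9 ligand genes are unmarked throughout, and in the lists of receptors, sensors, partners and stimulated genes most members were marked in both lines.

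The pathway genes most like each Irf gene were found by the distance between their percentiles in the 2 lists, with an unmarked gene placed at 0. Irf5 was closest to Socs1, at 1.90 points, and Ciita, at 4.18 points. Irf8 was closest to Parp9, at 5.20 points, and Tcf3, at 12.9 points. Irf4 was closest to Trim21, at 3.37 points, which like Irf4 stood near the bottom of the list of Scid.adh.2C2, at percentile 1.79, and high in that of 230-238, at 76.8. The next was Samhd1, at 13.1 points. Irf2 and Irf7 had the same neighbours, Ddx58 at 4.16 and 8.50 points and Id2 at 4.97 and 8.25 points. Irf1 was closest to B2m, at 8.87 points, and Jak2, at 10.9 points, Irf9 to Eif2ak2, at 4.29 points, and Igtp, at 12.4 points, and Irf3 to Batf, at 14.6 points, and Trim21, at 15.8 points. These likenesses rest on 2 values per gene.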

How the data were processed

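H3K4me3 ChIP-seq of Scid.adh.2C2 and 230-238, each with 2 H3K4me3 libraries (Millipore antibody) and 1 input, was processed by the submitters, whose notes name Trim Galore 0.6.7, Bowtie2 2.4.4 (mm10, GRCm38) and MACS2 2.2.7.1. Peaks had been called in narrow mode against input at q 0.05 and kept at an IDR threshold of 0.05. The deposited score is the IDR score, up to 1000. The fold enrichment is a ratio over background given by the authors' peak caller. The −log10 p and −log10 q are likewise the authors' values. All were used unchanged.

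The peaks were overlapped with GENCODE M21 TSSs of the same build in Python 3.11.15 with numpy 2.4.6 and matplotlib 3.10.9. The overlap was tested on simulated peaks. All Irf genes are named. Of the pathway lists, genes marked in 1 line only, the up to 3 highest promoters per list and line, and the nearest 2 to each Irf gene are named, some of them left out. The Irf genes and lists were chosen with earlier results of these data known. Other windows, thresholds and TSS choices were tried. Input libraries entered only through the peak calling.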

Additional observations from a re-analysis of the deposited data

How the results depend on the processing

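The numbers of marked Irf genes, 6 in Scid.adh.2C2, 8 in 230-238, 2 in 230-238 only and 0 in Scid.adh.2C2 only, were the same with windows of 1000 bp or 5000 bp, only peaks whose IDR score was 1000, lists of equal length by −log10 p, summits inside the window, the most upstream TSS, or TSSs of protein-coding transcripts. With peaks of at least 10-fold enrichment the numbers were 5, 8, 3 and 0, because Irf4 lost its 8.32-fold enriched peak in Scid.adh.2C2.

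The difference in percentile, 230-238 minus Scid.adh.2C2, changed direction with the covered part of the window for Irf1 (from -21.4 to 1.25 points), Irf2 (from 37.1 to -0.26) and Irf7 (from 35.5 to -42.7), and the cause was not tested. Of the other 15 values, with covered length, −log10 q or ranks among all peaks, 13 moved by more than 10 points and kept their direction. With −log10 q the difference shrank to 5.39 points for Irf7 and -7.36 for Irf1, and with covered length that of Irf3 shrank from 53.4 to 10.5, so that only the difference of Irf4 was above 70 points throughout. For the widest peak, joining peaks over gaps of up to 500 bp, chosen after the data were seen, changed the difference from -36.0 to 2.41 points for Irf1 and from -9.94 to 1.68 for Irf2, whose peaks were split in 230-238.

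With peaks of at least 10-fold enrichment no distal peak was left at Irf4, Irf5 or Irf8 in 230-238, 5 of 10 were left at Irf2, and 1 of 2 at Irf4 in Scid.adh.2C2. This threshold is not equivalent in the lists, whose median fold enrichment over all peaks was 20.3 in Scid.adh.2C2 and 15.4 in 230-238. Within 100000 bp either side of the gene, distal peaks rose from 2 to 4 at Irf4 in 230-238 and from 0 to 1 at Irf1 in each line.

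No paired analysis was possible because each line has 1 combined list. The lists hold no depth, so an unmarked promoter is one where no peak passed the authors' thresholds.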
